A study of Homo sapiens with 22 samples.

Results

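The colony stimulating factors are secreted proteins that direct the survival, growth and differentiation of myeloid cells, and 4 genes were followed: CSF1, CSF2, CSF3 and IL34. They were chosen by name, and 3 of the 4 had a row among the 36859 genes of the deposited expression table, across all 22 columns. CSF2 was not analysed here. CSF1 (M-CSF) and IL34 are alternative ligands of the receptor tyrosine kinase CSF1R, on which most macrophages depend, and IL34 also binds PTPRZ1 and the proteoglycan SDC1. CSF3 (G-CSF) drives the production and release of neutrophils through CSF3R, whereas CSF2 (GM-CSF) signals through CSF2RA and the shared β chain CSF2RB. In epithelial cells and fibroblasts these genes are well known as inducible targets of inflammatory cytokines, and the short-lived CSF2 and CSF3 mRNAs carry AU-rich elements.

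The RNA-seq libraries came from RPTEC, hTERT-immortalized human renal proximal tubule epithelial cells, in 11 groups of 2 libraries. In 2% serum there were wild-type cells (WT), WT cells given 10 ng/ml TGF-β for 72 h (WT TGF-β), the SETD2 knockout clones KO1 and KO2, and a line labelled KO2 rescue. In 10% serum there were the rescue clones Rescue1 and Rescue2, which are knockout cells carrying lentiviral FLAG-tagged full-length SETD2, and bulk-selected WT cells transduced with eGFP, OCT2, PRRX1 or SOX2. SETD2 is the methyltransferase that deposits trimethylation on lysine 36 of histone H3. KO1, KO2 and each rescue line derive from single cells, so a difference between them and WT can also be a difference between clones. Serum and transduction change together between WT and WT eGFP, and serum, transduction and clone between KO2 and the 10% serum rescue clones, so their effects cannot be told apart in those comparisons. Nothing in the labels says that the 2 libraries of a group came from separate cultures, so p-values measure the spread between these libraries, which may be technical.

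The guide that made the knockouts is shown because every KO comparison rests on it. It matched 3:47122997-47123016 of GRCh38 on the plus strand, in the coding sequence of exon 3 of SETD2, a minus-strand gene. Capitals mark the PAM.
SETD2 guide with PAM: tagaatatgatgaccctcgtCGG
SETD2 mRNA was 1852 and 2061 normalized counts in WT, 1046 and 1130 in KO1, and 1050 and 1052 in KO2, and it was 10240 and 10369 in Rescue1 and 10445 and 9764 in Rescue2. The libraries labelled KO2 rescue held 834 and 820, so the added SETD2 was not seen in their mRNA. The changes in KO1 and KO2 against WT were -0.84 and -0.89, under the fold limit used below, and a frameshift in a knockout need not remove the transcript. Library depth was about 7.51 to 19.0 × 10⁶ reads. The epithelial genes KRT8 (3952 to 25190) and PAX8 (1535 to 6561) were present in every library, whereas LRP2, a defining gene of the differentiated proximal tubule, was at 0 in 20 of 22 and did not exceed 2.29. Lymphocyte markers summed to at most 7.0 normalized counts in any library. Of the myeloid markers, C1QA, C1QB and TYROBP were at 0 in all 22 libraries, SPI1 did not exceed 2.35 and PTPRC reached 20.1 in 1 Rescue1 library, and 3 of 11 myeloid markers passed the filter on low values (CD14, CD68 and LYZ). The summed myeloid markers were 121 to 158 in WT, 61.4 to 72.6 in WT TGF-β, 245 to 380 in KO1, 158 to 205 in KO2, 11.2 to 71.0 in the rescue clones and 87.0 to 151 in the transduced WT lines, most of it CD68 in WT, WT TGF-β, KO1, KO2 and the transduced WT lines. CD68 is a lysosomal protein that other cells also make. The 2 WT libraries differed most from each other, with a median absolute log2 difference of 0.181 over genes against 0.0644 to 0.162 in the other groups. A value of 0 in these libraries does not show that a gene was silent, since among 19 genes that nearly every cell uses, looked at after the values were seen, WASF2 was listed at 0 in 11 libraries, HPRT1 in 6 and POLR2A in 1. A gene at 0 is therefore described as listed at 0, with no fold against it.

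CSF3 was the member that moved. It was listed at 0 in WT and WT TGF-β, was high in both SETD2 knockout clones, and was listed at or near 0 in the rescue clones. CSF3 (ENSG00000108342) lies at 17:40015361-40017813 on the plus strand. It was 842 and 912 normalized counts in KO1 and 153 and 86.1 in KO2. It was listed at 0 in both WT libraries and in both WT TGF-β libraries. KO1 and KO2 overlapped neither each other nor the WT and WT TGF-β libraries.

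**Figure D1:**
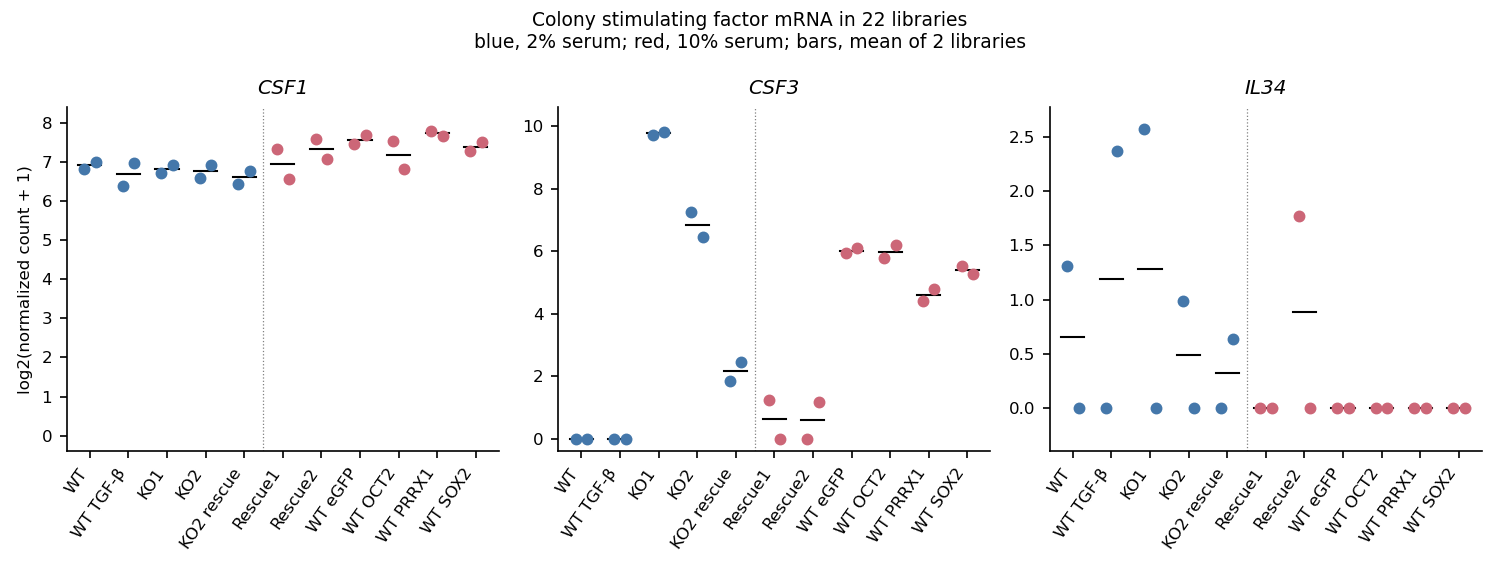
Normalized counts of CSF1, CSF3 and IL34 on the log2(value + 1) scale in each of the 22 libraries (points, 2 per group) with the mean of that scale (bars), in 2% serum (blue) and 10% serum (red). CSF3 spans 0 to 912 normalized counts, while CSF1 stays between 81.8 and 219 and IL34 does not exceed 4.94.

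Tests were made with limma on log2(normalized count + 1) over all 22 libraries, and a gene was called when its adjusted p was below 0.05 and its log2 change exceeded 1 in size. On that scale CSF3 was 9.78 ± 0.56 higher (log2 change ± SE) in KO1 than in WT (limma adjusted p = 3.11e-09) and 6.86 ± 0.56 higher in KO2 (limma adjusted p = 2.78e-07). Leaving out single libraries moved these changes between 9.72 and 9.83 in KO1 and between 6.44 and 7.27 in KO2. Fitted values against a group listed at 0 depend on the added 1 and on what the 0 stands for, and they are neither folds nor bounds. Of the 14585 genes tested, 12.0% were called higher in KO1 and 9.02% in KO2, so a rise was common in these clones, and CSF3 was 1 of the 2 members tested, CSF1 being the other. CSF3 was higher in KO1 than in KO2 by 2.92 ± 0.56 (limma adjusted p = 0.00246, 2.48% of genes called in that direction), a ratio of means of 7.33. With the fit restricted to these 4 libraries the same difference had an adjusted p of 0.0664.

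TGF-β, a standard inducer of epithelial-mesenchymal transition, left CSF3 listed at 0 in both libraries, as it was in WT, so no difference between WT and WT TGF-β could be measured. Against WT TGF-β, the fitted change of the mean of both clones was 8.32 ± 0.49 (limma adjusted p = 3.79e-09), and 10.3% of genes were called higher in that comparison.

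In the rescue clones CSF3 was 1.39 and 0 normalized counts in Rescue1 and 0 and 1.25 in Rescue2. Every rescue library lay below every KO2 library. The fitted changes were -6.23 ± 0.56 in Rescue1 (limma adjusted p = 9.88e-07) and -6.27 ± 0.56 in Rescue2 (limma adjusted p = 9.31e-07), where 9.24% and 8.41% of genes were called lower. Leaving out single libraries moved them between -6.86 and -5.60 for Rescue1 and between -6.86 and -5.68 for Rescue2, with 1 library of each rescue clone listed at 0. Rescue1 and Rescue2 differed by 0.04 with a 95% confidence interval of -1.16 to 1.25, and 0.994% of genes were called between them.

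The transduced WT lines, grown like the rescue clones in 10% serum, did express CSF3. WT eGFP held 60.9 and 67.6 normalized counts, WT OCT2 54.5 and 72.0, WT SOX2 45.1 and 37.5, and WT PRRX1 20.5 and 26.8. All 8 libraries lay above all WT libraries and below all KO libraries. WT eGFP was called above WT (fitted change 6.03 ± 0.56, limma adjusted p = 1.91e-06, 6.49% of genes called higher). Within 10% serum, the mean of both rescue clones was lower than WT eGFP by a fitted change of -5.42 ± 0.49 (limma adjusted p = 9.91e-07, 6.66% of genes called lower). Rescue clones grown in 10% serum thus had CSF3 listed at or near 0, as WT had in 2% serum, while the transduced WT line in 10% serum was higher than the rescue clones.

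None of the transcription factors OCT2, PRRX1 or SOX2 gave a CSF3 call against WT eGFP. In WT PRRX1 both libraries lay below both WT eGFP libraries, with a change of -1.41 and a 95% confidence interval of -2.62 to -0.21 (limma unadjusted p = 0.0247, adjusted p = 1). For WT SOX2 the change was -0.63 (interval -1.83 to 0.58), and for WT OCT2 it was -0.03 (interval -1.24 to 1.17). Calls were rare in all of these comparisons, with 0.0411% of genes called in either direction for PRRX1, 0.0343% for OCT2 and 0.0206% for SOX2.

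The libraries labelled KO2 rescue held 2.61 and 4.53 normalized counts of CSF3, below KO2 in the same 2% serum and above the 0 listed in WT. The ratio of KO2 to these libraries was 33.5, and the fitted change was -4.69 ± 0.56 (limma adjusted p = 5.68e-05, 2.52% of genes called lower). SETD2 mRNA was not raised in these libraries, so they show a lower CSF3 level without a measured gain of SETD2 transcript.

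**Figure D2:**
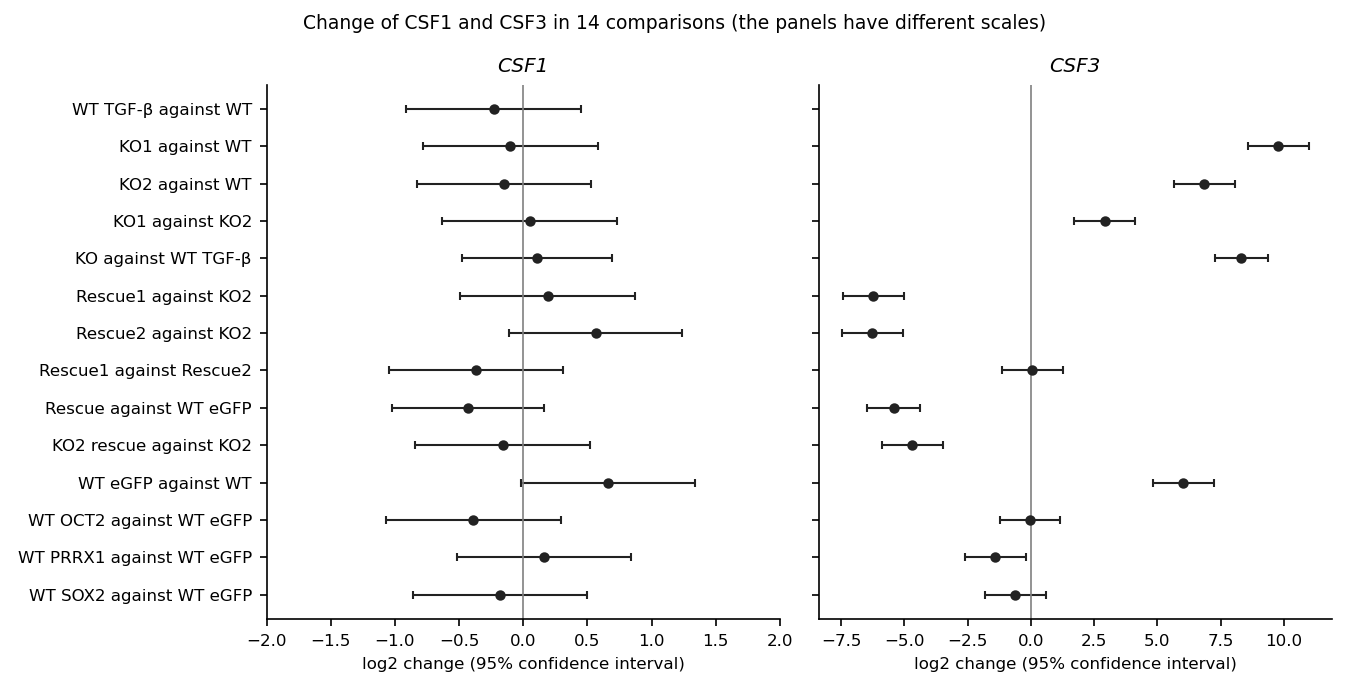
Log2 change of CSF1 (left) and CSF3 (right) in 14 comparisons, as points with 95% confidence intervals from limma; the horizontal scales differ, and CSF3 in WT TGF-β against WT is left out because all 4 libraries were at 0. CSF3 intervals lie away from 0 in 10 comparisons, among them PRRX1, which was not called after adjustment, and every CSF1 interval includes 0.

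In order of their means, CSF3 fell from KO1 (877 ± 49.7, SD, n = 2) to KO2 (120 ± 47.4), WT eGFP (64.2 ± 4.73), WT OCT2 (63.3 ± 12.4), WT SOX2 (41.3 ± 5.41), WT PRRX1 (23.7 ± 4.48), KO2 rescue (3.57 ± 1.36), Rescue1 (1.39 and 0), Rescue2 (0 and 1.25), and WT and WT TGF-β, both listed at 0. The library values of WT eGFP and WT OCT2 overlapped, as did those of Rescue1, Rescue2, WT and WT TGF-β. The other neighbours in the order did not overlap. Over the 22 libraries the genes whose log2 levels were most like CSF3, among 9818 genes with a mean of at least 50, were LYST (Pearson r = 0.964), HOXD11 (0.958), HOXD10 (0.957), SIPA1L2 (0.956) and the neutrophil chemokine CXCL1 (0.954). The libraries share groups, so these values describe the pattern and carry no test.

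CSF1 was expressed in every library and was not called in any comparison. CSF1 (ENSG00000184371) lies at 1:109910242-109930992 on the plus strand. It was 112 and 127 normalized counts in WT and 81.8 and 126 in WT TGF-β. KO1 held 104 and 119 and KO2 held 95.9 and 120. These groups overlapped throughout. The change was -0.10 in KO1 (95% confidence interval -0.78 to 0.58, limma adjusted p = 0.836), -0.15 in KO2 (-0.83 to 0.53, adjusted p = 0.787) and -0.23 with TGF-β (-0.91 to 0.45, adjusted p = 0.718). The intervals of these 3 changes reached no lower than -0.91 and no higher than 0.58.

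In 10% serum, CSF1 was 175 and 204 in WT eGFP, 186 and 111 in WT OCT2, 219 and 203 in WT PRRX1, 154 and 181 in WT SOX2, 160 and 94.3 in Rescue1 and 191 and 133 in Rescue2. The libraries labelled KO2 rescue held 85.6 and 108. The 10 libraries in 2% serum ranged from 81.8 to 127 with a median of 110.0, and the 12 in 10% serum from 94.3 to 219 with a median of 178. The ranges overlapped. The highest change of CSF1 in any comparison was 0.66 in WT eGFP against WT (interval -0.02 to 1.34, limma adjusted p = 0.149), and over all 14 comparisons its changes ran from -0.43 to 0.66, with 0 called and 0 at an unadjusted p below 0.05 in limma. No pair of neighbouring groups in the order of CSF1 means was free of overlap, from WT PRRX1 (211 ± 11.3, SD, n = 2) at the top to KO2 rescue (96.7 ± 15.8) at the bottom. Among the genes most like CSF1 over the 22 libraries were WASF2 (r = 0.846), FAM157A (0.837), PSIP1 (0.832) and CSPP1 (0.819). WASF2 was listed at 0 in all 10 libraries in 2% serum and in 1 in 10% serum, so its likeness follows the split by serum.

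Per kilobase of the longest coding transcript, CSF3 was at 524 ± 29.7 normalized counts in KO1 and 71.5 ± 28.3 in KO2, while CSF1 was at 27.9 ± 2.74 and 27.1 ± 4.36 in the same clones and 30.0 ± 2.71 in WT (SD, n = 2). Per length, CSF3 was thus the more abundant of the pair in both knockout clones and CSF1 the more abundant in WT. In WT PRRX1 the order was again CSF1 (52.9 ± 2.82 per kilobase) above CSF3 (14.2 ± 2.68). In WT eGFP they were 47.5 ± 5.19 and 38.4 ± 2.83.

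IL34, the alternative CSF1R ligand, was listed at or near 0 in every library. IL34 (ENSG00000157368) lies at 16:70579895-70660682 on the plus strand. Its highest value in any library was 4.94 normalized counts, in 1 KO1 library whose replicate was at 0. It was listed at 0 in 5 of the 10 libraries in 2% serum and in 11 of the 12 in 10% serum. It did not pass the low-value filter (10 normalized counts or more in 2 libraries or more), and in limma without that filter it was called in 0 of 14 comparisons, with a lowest unadjusted p of 0.304 and a lowest adjusted p of 0.656.

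The receptors of CSF3 and CSF2 were listed at or near 0, which does not show that they were absent. CSF3R, the receptor of CSF3, was listed at 0 in 20 of 22 libraries and reached 3.49 normalized counts. CSF2RB, the signalling chain shared by the receptors of CSF2, IL3 and IL5, was listed at 0 in all 22, and CSF2RA did not exceed 5.02. IL3, IL5 and IL5RA were also listed at 0 in all 22 libraries, and IL3RA reached 6.23.

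CSF1R was present at low level and was highest with TGF-β. It was 242 and 188 normalized counts in WT TGF-β and 64.0 and 8.02 in WT, so the WT libraries differed widely from each other while both lay below WT TGF-β. The change was 3.15 (95% confidence interval 1.28 to 5.01, limma adjusted p = 0.0206), where 3.58% of the 14585 genes were called higher. It was 1.72 with an adjusted p of 0.266 without WT replicate 2, and it was also not called without either WT TGF-β library (adjusted p = 0.115 and 0.0703). In the knockout clones CSF1R was 17.9 and 92.4 in KO1 and 8.86 and 29.9 in KO2, overlapping WT. KO against WT TGF-β gave -2.98 (limma adjusted p = 0.00593, 9.83% of genes called lower), with an adjusted p of 0.0571 without WT TGF-β replicate 1. In Rescue2 it was 74.2 and 83.1, and in the libraries labelled KO2 rescue 5.17 and 4.37.

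**Figure D3:**
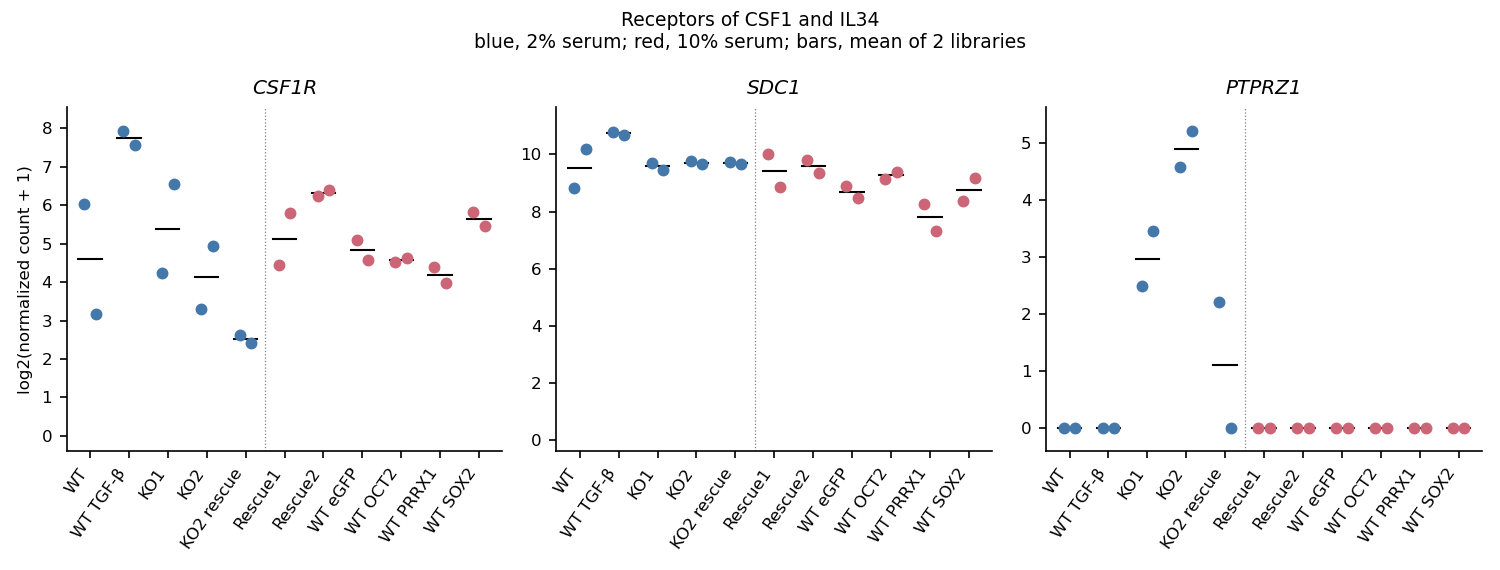
Normalized counts of CSF1R, SDC1 and PTPRZ1 on the log2(value + 1) scale in 22 libraries (points, 2 per group; bars, mean; blue, 2% serum; red, 10% serum). CSF1R and SDC1 are highest in WT TGF-β, and PTPRZ1 is above 0 only in KO1, KO2 and 1 library labelled KO2 rescue.

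PTPRZ1, a receptor tyrosine phosphatase best known from the nervous system, was 4.64 and 9.93 normalized counts in KO1 and 23.0 and 36.0 in KO2. It was listed at 0 in all libraries of WT, WT TGF-β, the rescue clones and the transduced WT lines, and at 3.65 and 0 in the libraries labelled KO2 rescue. KO1 and KO2 were called above WT (fitted changes 2.97 and 4.90, limma adjusted p = 0.00299 and 6.47e-05), where WT was listed at 0. PTPRZ1 passed the low-value filter only through its KO2 libraries, and both KO1 libraries were below 10. It was thus tested only because it was high in KO2, and these p-values carry little weight. Like CSF3, it was above 0 in both knockout clones and at 0 in WT, but unlike CSF3 it was at 0 in the transduced WT lines. The difference of KO1 from KO2 was -1.92 (limma adjusted p = 0.0743).

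SDC1, an abundant heparan sulphate proteoglycan of epithelial cells, was 456 and 1165 normalized counts in WT and 1782 and 1632 in WT TGF-β, a change of 1.23 (95% confidence interval 0.29 to 2.16, limma adjusted p = 0.0702). It was 837 and 705 in KO1 and 870 and 804 in KO2, within the range of WT. KO against WT TGF-β was lower by a change of -1.09 (limma adjusted p = 0.0356), which was not called when single WT TGF-β libraries were left out (adjusted p = 0.164 and 0.117).

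Several genes that control CSF3 transcription in other cells were taken as lists chosen by known role. Of the 9 tested genes of inflammatory cytokines and their receptors, 4 rose and 2 fell in KO1, and 4 rose and 1 fell in KO2, with list medians of 0.90 and 0.41 beside medians of 0.00 over all genes. Over all genes, 12.0% were called higher and 13.1% lower in KO1, and 9.02% higher and 7.29% lower in KO2. IL1A, IL1B, IL1R1 and TLR4 were higher and TLR2 lower in both clones. In KO1 the TLR2 change was -0.77 without WT replicate 1 and -0.86 without KO1 replicate 1, under the fold limit. IL1B, a known inducer of CSF3 in non-immune cells, was 0 and 5.50 normalized counts in WT, 29431 and 28069 in KO1 and 3949 and 2701 in KO2. Its change was 13.46 ± 0.57 in KO1 (limma adjusted p = 1.06e-10) and 10.32 ± 0.57 in KO2 (limma adjusted p = 4.4e-09). IL1R1, the receptor that transmits its signal, was 60.2 and 55.5 in WT, 1670 and 1986 in KO1 and 944 and 998 in KO2. IL1A was 45.8 and 29.8 in WT, 6911 and 6150 in KO1 and 3522 and 2980 in KO2.

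**Figure D4:**
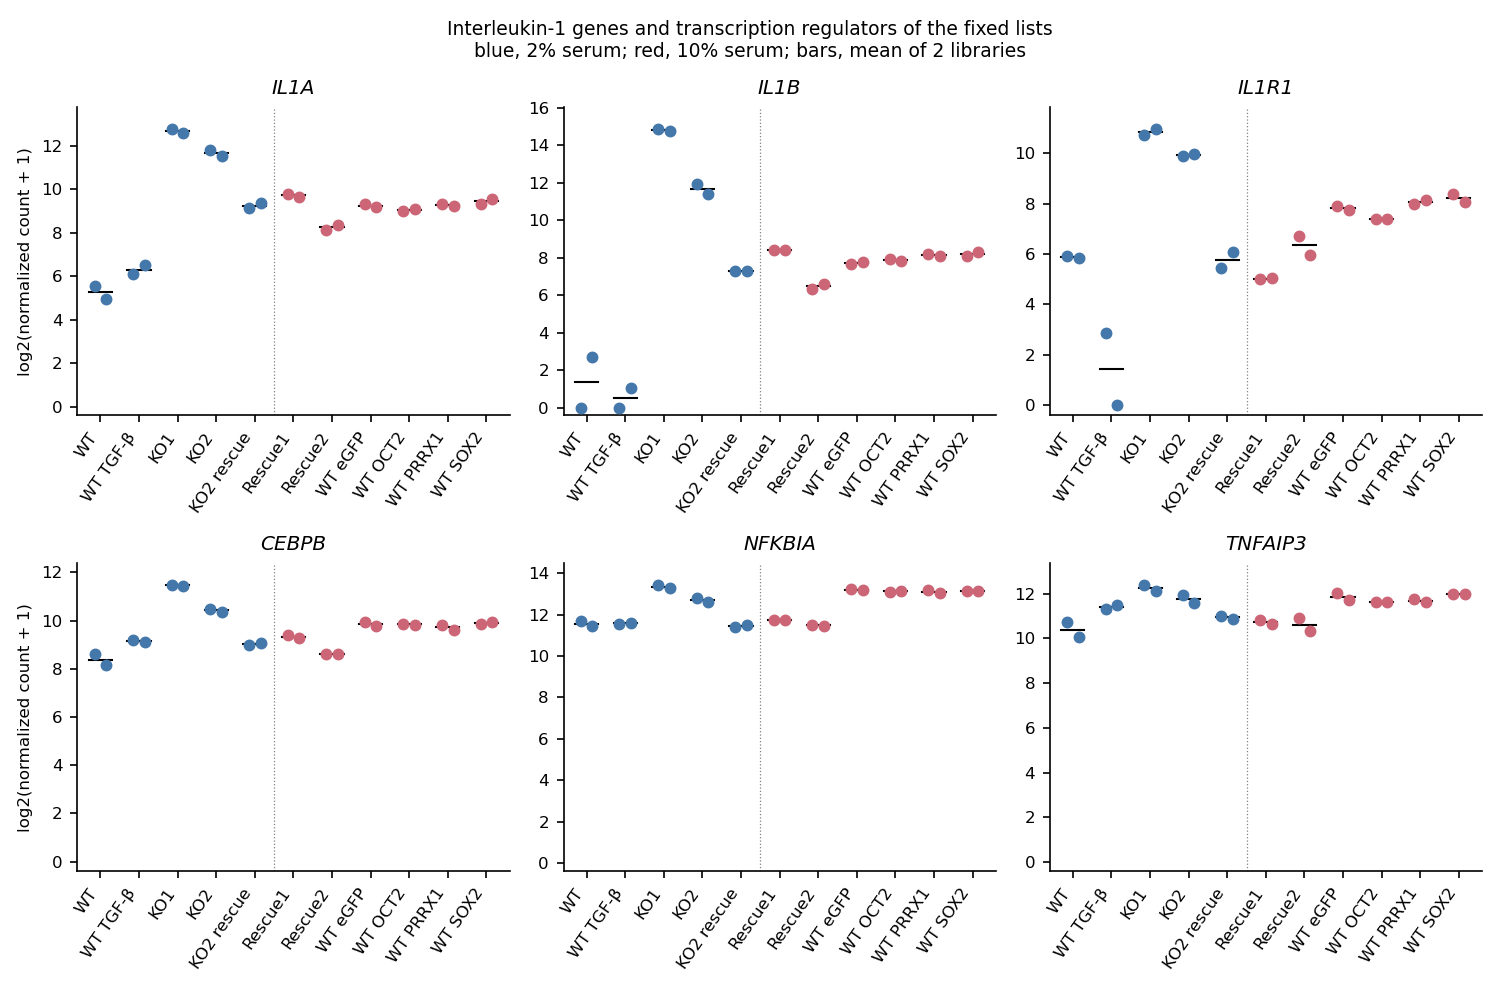
Normalized counts of IL1A, IL1B, IL1R1, CEBPB, NFKBIA and TNFAIP3 on the log2(value + 1) scale in 22 libraries (points, 2 per group; bars, mean; blue, 2% serum; red, 10% serum). All 6 are highest in KO1, and IL1B runs from 0 in 1 WT library to 29431 in 1 KO1 library.

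In Rescue1 and Rescue2 against KO2, IL1A, IL1B and IL1R1 fell and no gene of that list rose. Of all genes, 9.24% and 8.41% were called lower in these comparisons. IL1B was 335 and 342 in Rescue1 and 80.2 and 97.1 in Rescue2, above both WT libraries, whereas CSF3 in the same clones was near 0. WT eGFP held 204 and 218 normalized counts of IL1B together with 60.9 and 67.6 of CSF3. Both Rescue1 libraries thus held more IL1B and less CSF3 than both WT eGFP libraries. IL1R1 was 30.9 and 31.9 in Rescue1 and 240 and 215 in WT eGFP, and the mean of the rescue clones was lower than WT eGFP by -2.15 in the fit (limma adjusted p = 0.00559, and 0.0554 without WT eGFP replicate 1). Against WT, WT eGFP had the same 4 genes of the list higher and TLR2 lower, where 6.49% of all genes were called higher and 6.24% lower. The IL1R1 call was lost when any single library of WT or WT eGFP was left out, though its change stayed between 1.88 and 2.03. The TLR2 change was -0.88 without WT replicate 1, under the fold limit. With TGF-β, IL1R1 fell by 4.44 on the log2 scale (4.26% of all genes were called lower). IL1A, TLR2 and TLR4 rose with TGF-β (3.58% of all genes were called higher), and IL1B was 0 and 1.11. The rises of IL1A and TLR2 with TGF-β were 1.05 and 1.06 and passed the fold limit by little, and that of TLR4 was 1.40. Without WT replicate 2, IL1A, TLR2 and TLR4 were all under the fold limit, at 0.75, 0.76 and 0.97.

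Of 17 transcription factors and NF-κB regulators tested, CEBPB, NFKBIA and TNFAIP3 rose in both clones and FOSL1 fell in KO2, with list medians of -0.12 and 0.04. That is 3 of 17 higher in each clone, beside 12.0% of all genes in KO1 and 9.02% in KO2, and 1 of 17 lower in KO2 beside 7.29%. CEBPB, a C/EBP factor with a known site in the CSF3 promoter, was 386 and 287 normalized counts in WT, 2842 and 2795 in KO1 and 1440 and 1313 in KO2. Its changes were 3.08 ± 0.12 (limma adjusted p = 5.53e-11) and 2.04 ± 0.12 (limma adjusted p = 1.04e-08). It was 684 and 612 in Rescue1, 397 and 393 in Rescue2 and 508 and 544 in the libraries labelled KO2 rescue, and it fell in each of them against KO2. NFKBIA and TNFAIP3 are feedback inhibitors that NF-κB itself induces. NFKBIA was 3260 and 2791 in WT, 10980 and 10023 in KO1, 7063 and 6305 in KO2, and 9523 and 9335 in WT eGFP. FOS, a component of AP-1, separated the transduced WT lines from all other libraries. It was at most 22.3 in every library other than the transduced WT lines, which held 1464 to 2215, and the rescue clones in the same serum were at 0 to 22.3. The genes encoding the NF-κB subunits RELA, NFKB1, REL and RELB were not called in KO1 or KO2.

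Among 13 tested genes of JAK-STAT signalling, the route by which CSF3R and the β chain signal, PIM1, SOCS1 and SOCS3 rose and CISH and SOCS2 fell in KO1, while PIM1 and SOCS1 rose in KO2 and no gene fell. That is 3 of 13 higher and 2 of 13 lower in KO1, beside 12.0% and 13.1% of all genes, and 2 of 13 higher in KO2 beside 9.02%. The list medians were -0.28 and -0.06. SOCS1, a feedback inhibitor, was 31.8 and 26.6 in WT, 423 and 399 in KO1 and 248 and 218 in KO2, and in the rescue clones it was 194 and 160 and 160 and 137, with changes against KO2 of -0.40 and -0.65 that were not called. Its pattern therefore departed from that of CSF3 in the rescue clones. JAK1, JAK2, STAT3, STAT5A and STAT5B were not called in KO1 or KO2.

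Of 9 tested proteins that bind AU-rich mRNA, ZC3H12A and ZFP36L1 rose and HNRNPD and TIA1 fell in KO1, ZC3H12A rose in KO2, and the list medians were -0.29 and -0.24. These counts, 2 of 9 higher and 2 of 9 lower in KO1 and 1 of 9 higher in KO2, stand beside 12.0%, 13.1% and 9.02% of all genes, so the KO2 count was near the background. ZC3H12A (regnase-1), an endonuclease of inflammatory mRNAs, was 64.1 and 69.1 in WT, 231 and 138 in KO1 and 145 and 144 in KO2. ZFP36L1, which promotes decay, was 8979 and 9300 in WT and 24598 and 24896 in KO1. ZFP36, its best-known relative, did not pass the low-value filter and was not tested. The sheddases ADAM10 and ADAM17, which can release membrane-bound CSF1, were not called in KO1 or KO2, and ADAM10 fell with TGF-β by 1.13 on the log2 scale.

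Summed fibroblast markers were highest in the knockout clones, as CSF3 was, but the order of the other groups differed. Single genes led the sums, with DCN at means of 228210 in KO1 and 96676 in KO2 and COL1A1 at 45802 in WT TGF-β. The markers did not move together. DCN, LUM and PDGFRA were highest in KO1, whereas COL1A1, COL1A2 and PDGFRB were highest in WT TGF-β. THY1 was highest in WT SOX2 (2862, against 171 in KO1). The summed fibroblast markers ranged from 844 to 12444 normalized counts in WT, 46384 to 47791 in WT TGF-β, 223505 to 236651 in KO1, 100072 to 103686 in KO2, 39186 to 41516 in the libraries labelled KO2 rescue, 830 to 1536 in the rescue clones and 3683 to 6043 in the transduced WT lines. In bulk libraries, more cells of a kind and more RNA per cell cannot be told apart, and the part of these markers in the CSF3 result was not tested. WT TGF-β and the libraries labelled KO2 rescue had higher sums than the transduced WT lines and less CSF3. The summed epithelial markers were 38148 to 42311 in WT, 17021 to 19029 in KO1 and 25207 to 26244 in KO2. They were 40940 to 44863 in the rescue clones and 43804 to 44540 in the libraries labelled KO2 rescue. In WT TGF-β they were 30814.5 to 32170.5, and in the transduced WT lines 25310 to 29993, close to KO2. KRT8 and KRT19 made up most of these sums. CDH1 and EPCAM were called lower in both knockout clones and KRT8 and KRT19 in KO1. However, CUBN was called higher in both and PAX8 in KO1. EPCAM was also called lower in WT eGFP than in WT (change -1.49, limma adjusted p = 3.08e-07, 6.24% of genes called lower). In Rescue1 and Rescue2 the EPCAM means were 443 and 689, below the 869 of KO2, and the CDH1 means were 0 and 0.39. The endothelial markers summed to 5.0 to 40.3 in WT and 127 to 157 in the knockout clones, where KDR led. In Rescue1 they summed to 90.2 to 137.9, overlapping KO1, and in Rescue2 to 8.8 to 45.4. CDH5 led in Rescue1 (mean 76.3) and was listed at 0 in KO1 and KO2, so these markers did not move together. Neither list was tested for a part in the CSF3 result.

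Genes around the members were looked at next. Within 250 kb of the body of CSF3, 9 of 23 annotated genes were tested, of which GSDMB was called higher in KO1 (1.91, limma adjusted p = 0.016) and KO2 (1.64, limma adjusted p = 0.0451) and THRA in KO1 (2.03, limma adjusted p = 1.35e-07). The counts of 2 of 9 higher in KO1 and 1 of 9 in KO2 stand beside 12.0% and 9.02% of all genes, so the KO2 count was near the background. GSDMB was not called against WT without WT replicate 2 (0.83 in KO1 and 0.57 in KO2). Its call was also lost in KO2 without either KO2 library (1.72 and 1.55) and in KO1 without KO1 replicate 2 (1.79). GSDMB and RAPGEFL1 were also called higher in WT TGF-β than in WT, where CSF3 was listed at 0. That is 2 of 9, beside 3.58% of all genes, and GSDMB was not called there without WT replicate 2 (0.75). No tested neighbour of CSF3 was called in the rescue clones or the libraries labelled KO2 rescue against KO2, or in WT eGFP against WT. Around CSF1, 5 genes were tested, of which AHCYL1 was called lower in KO1 and GSTM1 lower in KO2. In other comparisons GSTM3 was called higher in KO1 than in KO2 (2.15), in Rescue1 (3.54) and the libraries labelled KO2 rescue (4.26) than in KO2, in Rescue1 than in Rescue2 (4.63) and in the rescue clones than in WT eGFP (3.70), and GSTM3 and GSTM1 were lower in WT eGFP than in WT (fitted changes -3.46 and -4.40, with GSTM1 listed at 0 in WT eGFP). AHCYL1 was called higher in Rescue2 than in KO2 (1.34). The GSTM genes are near-identical copies that can share reads, so their values are uncertain. Around IL34, 7 genes were tested, and VAC14 was called higher in KO1 (1.91, limma adjusted p = 0.000952) and KO2 (1.40, limma adjusted p = 0.0114). ST3GAL2 was called higher in KO1. These counts, 2 of 7 in KO1 and 1 of 7 in KO2, stand beside 12.0% and 9.02% of all genes. The VAC14 call in KO2 was lost without WT replicate 1 (change 0.86) and without either KO2 library (1.41 and 1.40).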

How the data were processed

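RNA-seq libraries of RPTEC were quantified by the authors with Salmon 1.9.0 and normalized with DESeq2 1.26.0 (annotation Ensembl release 94), per the submitters' processing notes. The deposited values are variance-stabilized log2 values (11.32 to 21.28), not raw counts. They were inverted to normalized counts, with the common minimum taken as 0, which need not mean that no RNA was present. Low values were only partly whole multiples of 1 read (30.3% to 46.8% within 0.1), so no count test was run and depth is approximate. Symbols and positions came from GENCODE release 44 (GRCh38), and 33878 of 36859 IDs matched. limma 3.58.1 (R 4.3.3, trend) was fitted to log2(normalized count + 1) with a mean per group over 22 libraries, after a filter of at least 10 in at least 2 libraries, with Benjamini-Hochberg adjustment over 14585 genes. In simulated data for KO1 against WT, 87.5% of 200 genes changed by a log2 value of 2 were recovered. Alternatives changed the pseudocount, filter, scaling, samples and pairing. The members, lists and tests were chosen with earlier results of these data known. The named genes were the members, SETD2, the receptors, listed genes called alike in both clones or among the 3 with the largest change of their list, genes starting within 250 kb, and the 5 most similar genes per tested member, of which 1 is not reported here. The guide sequence came from the study's primer list.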

Additional observations from a re-analysis of the deposited data

Results flagged for a closer look

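These results differed between 2 clones under the same contrast, by the direct limma test of the difference. CSF3 was higher in KO1 than in KO2 by 2.92 on the log2 scale (adjusted p = 0.00246), and so were IL1B by 3.14 (adjusted p = 0.00169), NFATC2 by 4.41 (adjusted p = 0.0242), IL1A by 1.01 (adjusted p = 0.00182), CEBPB by 1.03 (adjusted p = 5.01e-05), FOSL1 by 1.14 (adjusted p = 7.14e-05) and SOCS3 by 1.04 (adjusted p = 3.31e-05). Lower in KO1 than in KO2 were SOCS2 with a log2 change of -3.54 (adjusted p = 9.15e-07), CISH with -3.06 (adjusted p = 0.00109), TLR3 with -1.42 (adjusted p = 0.000544) and TIA1 with -1.11 (adjusted p = 0.00209). NFATC2 was 173 ± 66.5 normalized counts in KO1 and 30.8 ± 43.5 in KO2 (SD, n = 2). Its 2 KO2 libraries thus differed widely, and the size of its change is uncertain. Between the rescue clones, IL1A was higher in Rescue1 than in Rescue2 by 1.47 (adjusted p = 0.000367). Leaving out a single KO1 or KO2 library could take 4 of the rises in KO1 over KO2 under the fold limit. They went as low as 0.89 for IL1A, 0.97 for CEBPB, 0.93 for FOSL1 and 0.92 for SOCS3. With only the groups compared, nearly all calls between KO1 and KO2 were lost. Each clone is 1 line with 2 libraries.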

How the results depend on the processing

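Results were recomputed with 2 other pseudocounts, no filter, a mean of at least 50, quantiles made equal, library totals made equal, the deposited log2 values, only the groups compared, the replicate number as a block, and each library left out in turn. The 9 CSF3 calls kept their direction under all of these. On the deposited log2 scale, which compresses low values by construction, they were below the fold limit, at 0.83 (KO1) and 0.31 (KO2) against WT, 0.53 (KO1 against KO2), 0.57 (KO against WT TGF-β), -0.29 (Rescue1) and -0.29 (Rescue2) against KO2, -0.21 (rescue clones against WT eGFP), 0.23 (WT eGFP against WT) and -0.26 (the libraries labelled KO2 rescue against KO2), with adjusted p of at most 1.41e-05. With only the groups compared, KO1 against KO2 kept a CSF3 change of 2.92 with an adjusted p of 0.0664, from 4 libraries. Equal totals reversed CSF1 in KO1 against KO2 (-0.13) and CSF3 in WT OCT2 (0.015), both uncalled. It moved the median of all genes by -0.20 (TGF-β), -0.39 (KO1) and -0.20 (KO2) against WT, -0.21 (KO1 against KO2), and 0.23 (Rescue1) and 0.28 (Rescue2) against KO2. The share of calls that were higher went from 45.7% to 27.7%, 47.7% to 27.9%, 55.3% to 41.5%, 35.5% to 22.6%, 42.7% to 62.6% and 44.9% to 66.9%, in the same order.

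Leaving out single libraries turned only uncalled values. CSF1 ranged from -0.54 to 0.072 with TGF-β, -0.31 to 0.013 in KO2, -0.12 to 0.21 for KO1 against KO2, -0.20 to 0.41 for KO against WT TGF-β, -0.19 to 0.57 for Rescue1, -0.33 to 0.006 for KO2 rescue, and -0.75 to 0.007 for Rescue1 against Rescue2. CSF3 ranged from -0.59 to 0.67 for Rescue1 against Rescue2 and -0.23 to 0.16 for WT OCT2. CSF1R against WT ranged from -0.63 to 2.22 in KO1 and -1.90 to 0.95 in KO2.

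The 2 libraries of a group share a number across groups, but same-numbered libraries did not deviate together (r from -0.08 to 0.05 over 55 pairs of groups). With the replicate block, CSF3 in KO1 against WT was 9.78 with an adjusted p of 1.38e-08, and no call of a colony stimulating factor changed.

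For the other genes named, 1011 recomputed values kept their call, 183 lost it and 2 gained it under settings other than leaving out a library, and leaving out a library kept 531, lost 56 and gained 1. Counts of called genes were 0 to 178 per comparison on the deposited scale, against 3 to 3653 in the fit reported. With only the groups compared they were 1912 rather than 3653 in KO1, 715 rather than 1856 in WT eGFP, 1 rather than 1016 for KO1 against KO2, 1 rather than 145 between the rescue clones and 0 rather than 1143 with TGF-β in limma, where 1566 genes passed an unadjusted p of 0.05 and the fold limit. With a mean of at least 50, KO against WT TGF-β gave 1942 rather than 2939 calls. IL34, CSF3R and the rescue values of CSF3 lie at or near the lowest value of these data.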
